A study of Mus musculus with 6 samples.

Results

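A set of 9 markers of B cells, plasma cells and antibody transport was followed in mouse liver after sham surgery or vertical sleeve gastrectomy (VSG, in which the stomach is cut down to a narrow tube). The 9 genes, of 55385 in the count table, are Jchain, Mzb1, Pou2af1, Cd79a, Cd79b, Ms4a1, Tnfrsf17, Tnfrsf13c and Pigr. They were named for their roles in the B lineage and were chosen on a view of the VSG to sham comparison in these same 6 libraries, with no numerical threshold, so their own differences are given as a description, and where members fall past the threshold of the fit over all genes, this is no independent evidence. RNA came from the livers of male C57BL/6 mice, 6 to 8 weeks old at the start, all of which ate a high-fat diet for 10 weeks before the operation and 12 weeks after it. The 3 sham-operated mice (sham 1, 2 and 3) and the 3 VSG-operated mice (VSG 4, 5 and 6) differed in the operation, no lean or unoperated group is analysed here, and the mice carry no transgene that the labels name. Total counts were 23666809 to 24191778 per sham library and 22804397 to 23509921 per VSG library.

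B cells carry an antigen receptor made of a membrane immunoglobulin and a pair of signalling chains, and they live on survival signals from receptors of the TNF receptor family. When activated they can become plasma cells, which shut down much of the receptor programme and turn their endoplasmic reticulum to antibody secretion. Polymeric IgA and IgM are held together by the J chain and are carried across epithelia by the polymeric immunoglobulin receptor, which rodent hepatocytes and bile duct cells use to move IgA into bile. The healthy liver holds few B cells and plasma cells among its hepatocytes. In whole-liver RNA, fewer cells of a type and less RNA per cell cannot be told apart, and the same holds for more of either.

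By role, the plasma cell side of the list held Jchain (ENSMUSG00000067149.6, chr5:88519809-88527891, minus strand), Mzb1 and Tnfrsf17 (ENSMUSG00000022496.5, chr16:11313812-11320074, plus strand). The B lineage coactivator gene Pou2af1 (ENSMUSG00000032053.8, chr9:51213708-51240080, plus strand) belongs to neither side alone. The B cell side held Cd79a (ENSMUSG00000003379.7, chr7:24897381-24902197, plus strand), Cd79b (ENSMUSG00000040592.11, chr11:106311341-106314762, minus strand), Ms4a1 (ENSMUSG00000024673.9, chr19:11249675-11266241, minus strand) and Tnfrsf13c (ENSMUSG00000068105.11, chr15:82221743-82224369, minus strand). Pigr (ENSMUSG00000026417.13, chr1:130826684-130852249, plus strand) is the transporter. All coordinates are those of the count table, on mm10, and span the whole gene. Of the 9 genes, 8 shared no exon base with another gene of GENCODE M21, the exception being Mzb1.

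The 300 bases around the transcription start (250 before and 50 after, RefSeq, GRCm38.p6) are shown for Jchain and Pou2af1, whose levels did not overlap between the groups, and for Pigr, which is not a B cell gene. The promoter table held such a window for 6 of the 9 genes. Capitals mark the 7 letters TGCAAAT in Pou2af1, which are the octamer ATGCAAAT without its opening base, and the E-box CACGTG in Pigr. The octamer is the element that the Pou2af1 protein binds together with its POU partners in immunoglobulin promoters.
Jchain, chr5:88527848-88528147, minus strand: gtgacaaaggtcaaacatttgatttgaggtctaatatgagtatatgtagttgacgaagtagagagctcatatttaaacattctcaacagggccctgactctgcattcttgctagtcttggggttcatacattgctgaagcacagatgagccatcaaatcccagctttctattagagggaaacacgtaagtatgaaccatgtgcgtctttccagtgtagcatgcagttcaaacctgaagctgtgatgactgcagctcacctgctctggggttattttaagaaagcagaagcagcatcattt
Pou2af1, chr9:51213440-51213739, plus strand: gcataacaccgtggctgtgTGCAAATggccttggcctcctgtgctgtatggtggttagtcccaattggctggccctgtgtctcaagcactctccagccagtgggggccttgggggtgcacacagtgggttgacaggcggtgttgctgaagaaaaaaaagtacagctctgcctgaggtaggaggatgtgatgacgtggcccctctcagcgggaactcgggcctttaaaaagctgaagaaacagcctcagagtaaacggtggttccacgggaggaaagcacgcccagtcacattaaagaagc
Pigr, chr1:130826434-130826733, plus strand: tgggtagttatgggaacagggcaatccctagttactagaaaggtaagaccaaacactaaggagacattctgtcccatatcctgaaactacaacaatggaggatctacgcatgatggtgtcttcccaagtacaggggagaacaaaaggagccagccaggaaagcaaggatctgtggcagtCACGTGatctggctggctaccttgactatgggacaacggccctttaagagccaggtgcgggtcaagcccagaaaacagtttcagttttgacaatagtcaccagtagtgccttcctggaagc
The full octamer, searched on both strands, was in none of the 6 windows and in 1.74% of all 32851 mouse windows of the same length. TGCAAAT, which every octamer contains, was in 4.02% of all windows and, of the 6, in that of Pou2af1 only, at bases 20 to 26, near the far end of the window. CACGTG, which reads the same on both strands, was in 7.15% of all windows and, of the 6, in that of Pigr only, at bases 180 to 185. CCAAT, found in 37.4% of all windows, occurred on each strand of the Pou2af1 window, and TATAAA, found in 13.6%, in the window of Tnfrsf17. These are matches of letters and not sites of binding, and the motifs other than the octamer were picked after the values of the genes were seen.

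Jchain, which encodes the joining chain of polymeric IgA and IgM, was the member with the largest fold change of the 6 fitted. Its counts were 63, 58 and 58 in sham 1, 2 and 3 and 543, 526 and 495 in VSG 4, 5 and 6. The groups lay far apart and the libraries of each group lay close together. In CPM (counts scaled to library size, with the TMM factors of edgeR) it was 2.39 ± 0.230 in sham and 23.6 ± 1.04 in VSG livers (SD, n = 3 each, as for all values below). The fitted log2 fold change was 3.30 with a standard error (SE) of 0.13, a 9.84-fold higher level. Over 13 other ways of processing the counts it stayed between 3.16 and 3.37.

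Pou2af1, the coactivator that B cells need for germinal centres, had counts of 12, 14 and 22 in sham and 65, 33 and 64 in VSG livers. VSG 5 lay between the sham livers and the other VSG livers, and the groups did not overlap. Its level was 0.640 ± 0.196 CPM in sham livers against 2.47 ± 0.918 CPM after VSG, with a log2 fold change of 1.94 (SE 0.41), or 3.83-fold. The 13 alternatives gave values of 1.72 to 2.20.

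The plasma cell members other than Jchain were near the limit of detection. Mzb1 (ENSMUSG00000024353.5, chr18:35647267-35649367, minus strand), an endoplasmic reticulum protein of antibody-secreting cells, had 0, 2 and 2 counts in sham and 6, 1 and 3 in VSG livers. Tnfrsf17, which encodes the plasma cell survival receptor BCMA, had 0, 1 and 0 counts in sham and 2, 0 and 0 in VSG livers. A count of 3, taken as the floor, corresponds to 0.111 to 0.143 CPM. Tnfrsf17 was under it in all 6 libraries, and Mzb1 exceeded it in VSG 4 only, so no fold is given for either and a difference was not detectable at these counts. Mzb1 shared 57.2% of its 1215 exon bases with an overlapping gene model on the same strand, SPATA24, which had 0 counts in all 6 libraries. Spata24, listed under the same name in lower case, had 27, 17 and 31 counts in sham and 18, 12 and 14 in VSG livers.

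**Figure D1:**
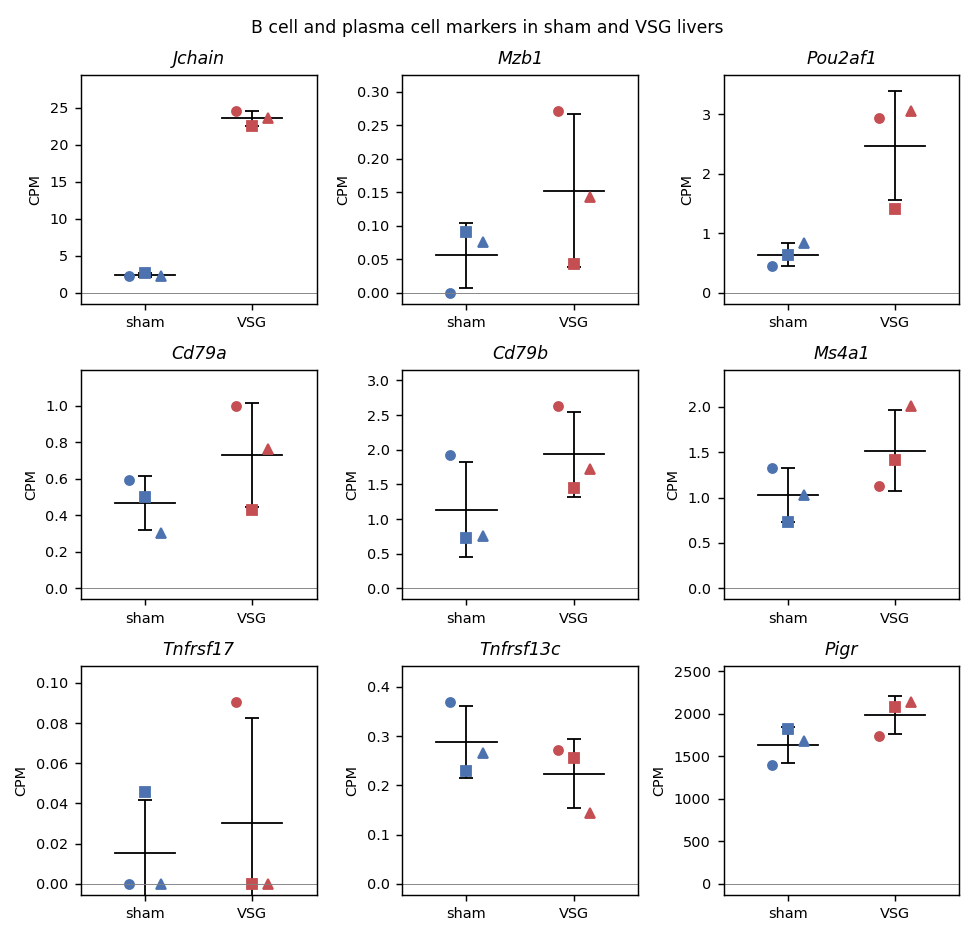
Level of each of the 9 genes in CPM (linear axes, one scale per panel) in the 3 sham (blue) and 3 VSG (red) livers. Circle, square and triangle are sham 1, 2 and 3 or VSG 4, 5 and 6, and the black lines are the group mean ± SD, cut off below 0 for Tnfrsf17. Jchain at 2.39 against 23.6 CPM and Pou2af1 at 0.640 against 2.47 CPM are the 2 panels in which every VSG liver lies above every sham liver.

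The B cell receptor chains and the B cell surface genes were under 3 CPM in every library, and their groups overlapped. Cd79a, the Ig-alpha chain that signals for the receptor, had 16, 11 and 8 counts in sham and 22, 10 and 16 in VSG livers. VSG 5 fell among the sham libraries, and the level was 0.466 ± 0.147 CPM in sham livers against 0.729 ± 0.286 CPM after VSG, a log2 fold change of 0.64 (SE 0.43). Cd79b, the Ig-beta chain that pairs with it, had 52, 16 and 20 counts in sham and 58, 34 and 36 in VSG livers. Here sham 1 stood above the other sham libraries and reached the VSG range. The level of Cd79b was 1.14 ± 0.679 CPM in sham livers against 1.93 ± 0.614 CPM after VSG, with a log2 fold change of 0.75 (SE 0.46) that became 1.36 without sham 1.

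Ms4a1, which encodes the B cell surface protein CD20, had 36, 16 and 27 counts in sham and 25, 33 and 42 in VSG livers. The lowest VSG level lay inside the sham range, and the means were 1.03 ± 0.299 and 1.52 ± 0.445 CPM, a log2 fold change of 0.55 (SE 0.34) that was 0.30 without VSG 6. Tnfrsf13c, the receptor for the survival factor BAFF, had 10, 5 and 7 counts in sham and 6, 6 and 3 in VSG livers. It was the 1 member of the 9 whose mean was lower after VSG, at 0.288 ± 0.0730 CPM in sham livers against 0.224 ± 0.0702 CPM after VSG, and its groups overlapped. Like Mzb1 and Tnfrsf17 it had too few counts to enter the fit.

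Pigr, the epithelial receptor for polymeric immunoglobulins, was by far the most abundant of the 9. It had 37833, 39770 and 44326 counts in the sham livers and 38332, 48786 and 44879 in the VSG livers. Its level was 1633 ± 215 CPM in sham livers against 1987 ± 220 CPM after VSG, and VSG 4 lay inside the sham range. The log2 fold change was 0.28 (SE 0.20), and 0.15 to 0.37 over the alternatives.

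Of the 9 members, 6 had counts high enough to be fitted and 3 (Mzb1, Tnfrsf17 and Tnfrsf13c) had not. Past an adjusted p of 0.05 in the quasi-likelihood fit of edgeR were 2 of the 6, Jchain and Pou2af1, both higher after VSG, where 14.7% of the 14454 genes tested passed in either direction, 6.79% as higher and 7.87% as lower. Pou2af1 was past it also without VSG 5, and no longer when sham 1, 2 or 3 or VSG 4 or 6 was left out. Groups with no overlap and VSG higher were seen for these same 2 of the 6, and for 19.8% of all genes tested. The members were chosen with this comparison in view, so nothing is read from these counts. Over all tested genes 981 passed as higher and 1137 as lower. With total counts in place of TMM factors the split was 486 higher and 1512 lower, and the median log2 fold change of all genes moved by -0.14. The 6 fitted members kept a positive log2 fold change under that scaling.

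**Figure D2:**
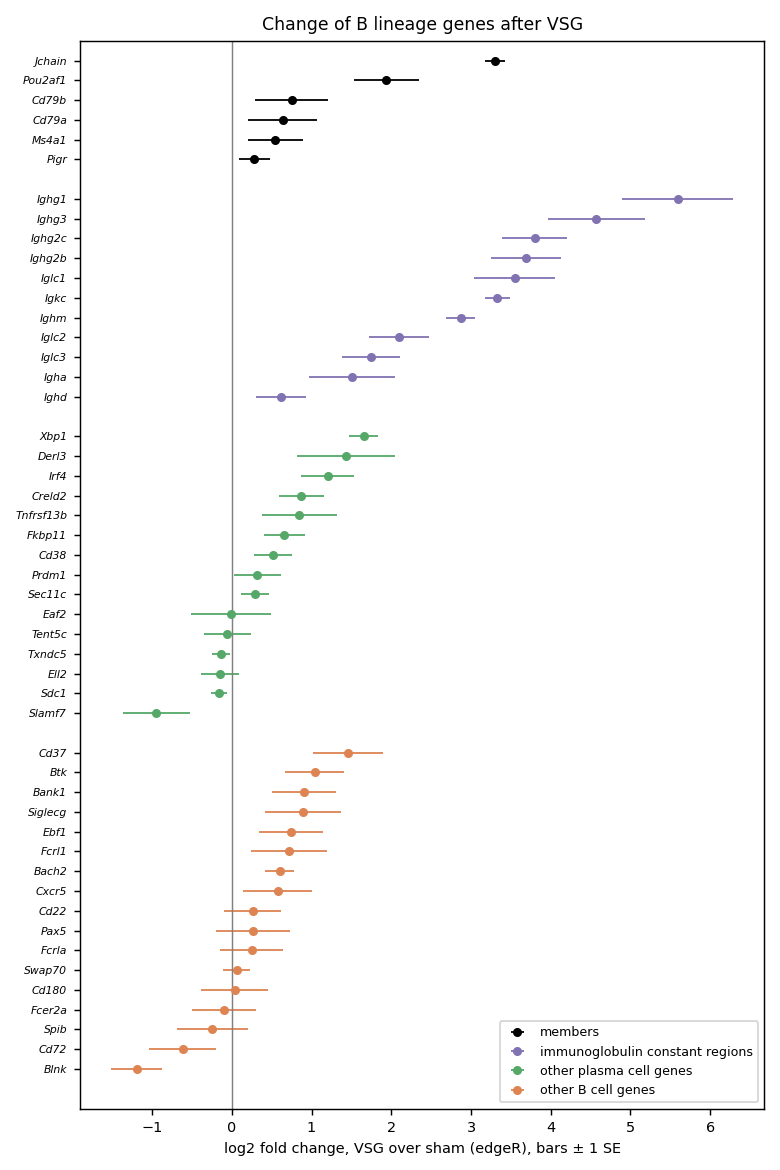
Log2 fold change, VSG over sham, of the fitted genes, 1 B cell gene left out, among the members (black), the immunoglobulin constant regions (purple), the other plasma cell genes (green) and the other B cell genes (orange). Points are edgeR estimates from 3 against 3 libraries and bars are ± 1 SE, with Jchain (3.30) among the immunoglobulin genes and Cd79a (0.64), Cd79b (0.75) and Ms4a1 (0.55) among the B cell genes.

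To set the genes against each other, counts were divided by exon length as well (FPKM, here CPM per kilobase of exon). On this scale the order in sham livers was Pigr (406 ± 53.3), Jchain (0.951 ± 0.0916), Cd79b (0.795 ± 0.474), Cd79a (0.320 ± 0.101), Pou2af1 (0.251 ± 0.0770), Ms4a1 (0.166 ± 0.0484), Tnfrsf13c (0.141 ± 0.0356), Mzb1 (0.0459 ± 0.0403) and Tnfrsf17 (0.0187 ± 0.0324). In this order Pigr lay apart from Jchain and Tnfrsf13c from Mzb1, while every other pair of neighbours overlapped within 1 SD of their means. In VSG livers the order was Pigr (494 ± 54.7), Jchain (9.36 ± 0.415), Cd79b (1.35 ± 0.429), Pou2af1 (0.968 ± 0.360), Cd79a (0.500 ± 0.196), Ms4a1 (0.245 ± 0.0720), Mzb1 (0.1255 ± 0.0944), Tnfrsf13c (0.109 ± 0.0343) and Tnfrsf17 (0.0370 ± 0.0641) in FPKM. Here Jchain stood apart from Cd79b as well, and Pou2af1 overlapped both Cd79b and Cd79a within 1 SD.

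Ratios of FPKM within a library do not depend on the scaling between libraries. Jchain over Ms4a1 was 4.30 in sham 1, 8.91 in sham 2 and 5.28 in sham 3, and 53.4, 39.2 and 29.0 in VSG 4, 5 and 6. These groups lay apart, as did Jchain over Cd79b at 0.689 to 2.06 in sham and 5.32 to 8.80 in VSG livers. Jchain over Igkc, the kappa light chain constant region, was 0.0416, 0.0452 and 0.0426 in sham and 0.0391, 0.0501 and 0.0397 in VSG livers. The highest of these 6 ratios was 1.28 times the lowest, and the groups overlapped. Jchain over Ighm, the constant region of IgM, also overlapped, at 0.0687 to 0.115 in sham and 0.107 to 0.137 in VSG livers.

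**Figure D3:**
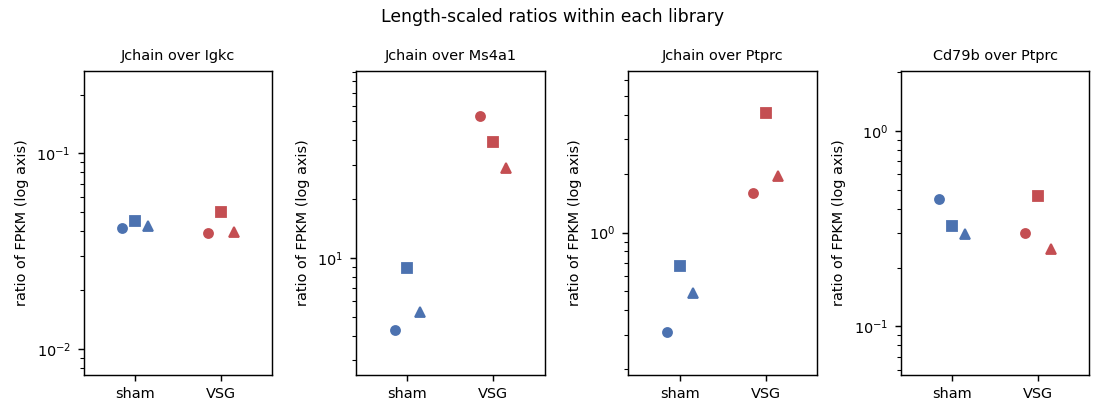
Ratios of FPKM within each library on log axes, each panel covering the same range of fold, for sham (blue) and VSG (red) livers with the symbols of sham 1, 2 and 3 or VSG 4, 5 and 6 as circle, square and triangle. Jchain over Igkc stays within 0.0391 to 0.0501 in all 6 libraries, while Jchain over Ms4a1 runs from 4.30 to 8.91 in sham and from 29.0 to 53.4 in VSG livers.

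The immunoglobulin constant regions, the products of the cells that these members mark, rose in 9 of the 11 fitted genes and fell in none (edgeR's quasi-likelihood test, Benjamini-Hochberg adjusted p under 0.05). The median log2 fold change of the 11 was 3.33, against 0.03 over all genes tested. Igkc was at 11.7 ± 0.725 CPM in sham livers against 118 ± 20.2 CPM after VSG (log2 change 3.33, SE 0.16, adjusted p = 8.54e-04). Ighm rose from 20.3 ± 3.46 to 149 ± 22.8 CPM (2.87, SE 0.18, adjusted p = 0.00177), and Ighg2c and Ighg2b, constant regions of IgG subclasses, rose by 3.80 and 3.69 on the log2 scale (adjusted p = 0.00645 and 0.00792). Igha, the constant region of IgA, had 90, 42 and 20 counts in sham and 178, 133 and 71 in VSG livers and did not pass (1.51, SE 0.54, adjusted p = 0.105), though it did with DESeq2 (adjusted p = 0.0351), which called 10 of the 11 genes where limma-voom called 9. Ighd, the IgD constant region of naive B cells, did not pass either (0.62, SE 0.32, adjusted p = 0.213). Fewer passed without sham 3 (4 genes) or VSG 6 (5 genes). A filter of 10 counts in every library took out Ighg3, Iglc1, Iglc2 and Iglc3, which had passed and are named after their values were seen. How reads shared between similar constant regions, such as those of the IgG subclasses, were assigned is not known.

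Of 22 other B cell genes, 18 could be tested and none passed the adjusted p of 0.05 in the quasi-likelihood test of edgeR, where 4 had an unadjusted p under 0.05 and 4 passed with DESeq2 and 0 with limma-voom. Those 4 were in each case Bach2 and, named after their values were seen, Blnk, Btk and Cd37. The 18 had a median log2 fold change of 0.42, 14 of them above 0 and 4 below. Cd22, an inhibitory receptor of B cells picked after the values were seen, was at 3.72 ± 1.55 CPM in sham livers against 4.49 ± 1.03 CPM after VSG (0.27, SE 0.36, adjusted p = 0.625). Bach2, a repressor that holds B cells back from plasma cell fate, was at 9.31 ± 1.12 and 14.1 ± 2.71 CPM (0.60, SE 0.18, adjusted p = 0.0665). Blnk, the adaptor below the receptor, pointed the other way, at 8.46 ± 2.94 CPM in sham livers against 3.70 ± 1.08 CPM after VSG (-1.19, SE 0.32, adjusted p = 0.0519). Cd72 (-0.62, SE 0.42), Cd180 (0.04, SE 0.42) and Swap70 (0.06, SE 0.17), named for their high mean CPM, had adjusted p-values of 0.333, 0.960 and 0.818. Bank1 (0.91), Siglecg (0.90), Ebf1 (0.74) and Fcrl1 (0.72), at lower mean CPM and picked after the values were seen, did not pass either. Without VSG 5, 3 genes of the list passed.

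Of 15 other plasma cell genes, all tested, Xbp1 rose, and 4 had an unadjusted p under 0.05 in edgeR. The median log2 fold change was 0.32, with 9 genes above 0 and 6 below. Xbp1, the transcription factor of the unfolded protein response that plasma cells need and hepatocytes also express, had 3965, 3124 and 4172 counts in sham and 12985, 10197 and 8114 in VSG livers. The groups were apart, and the level went from 149 ± 8.25 to 470 ± 105 CPM (1.66, SE 0.18, adjusted p = 0.00698). Irf4, which drives plasma cell differentiation, had 36, 17 and 23 counts in sham and 65, 38 and 49 in VSG livers (1.20, SE 0.34, adjusted p = 0.0576). Prdm1, the master repressor of the B cell programme, was at 2.53 ± 0.451 and 3.17 ± 1.07 CPM (0.32, SE 0.29, adjusted p = 0.465). Irf4, Prdm1 and Creld2 were picked after the values were seen. Sdc1, which encodes the plasma cell surface proteoglycan CD138 and is abundant in hepatocytes, was at 158 ± 2.02 and 142 ± 9.03 CPM (-0.16, SE 0.10, adjusted p = 0.305). Txndc5, Ell2 and Cd38 had log2 fold changes of -0.13, -0.15 and 0.52 and did not pass. Their mean levels over the 6 libraries were 165, 95.6 and 39.5 CPM. Derl3 (1.43, SE 0.61) and Fkbp11 (0.66, SE 0.25), at lower levels and picked after the values were seen, did not pass either. With DESeq2, Irf4 and Creld2 passed as well as Xbp1, and without VSG 5 the count was 3.

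Genes that feed and call B cells were measured in a list of 12, of which 8 were tested and 1 rose. This was Cxcl13, the chemokine that attracts B cells into follicles, at 29, 40 and 14 counts in sham and 2165, 218 and 1652 in VSG livers. VSG 5 was again the lowest of its group, and the log2 fold change was 5.78 (SE 0.98, adjusted p = 0.0171). It did not pass with limma-voom (adjusted p = 0.104), without sham 1 (0.0522), without sham 3 (0.0899) or without VSG 6 (0.0682). Tnfsf13b, which encodes BAFF, the ligand of the Tnfrsf13c receptor, was at 1.14 ± 0.400 and 1.58 ± 0.437 CPM (0.46, SE 0.36, adjusted p = 0.398). Tnfrsf13b, which encodes TACI, a further receptor for BAFF, was at 1.21 ± 0.529 and 2.19 ± 1.05 CPM (0.85, SE 0.47, adjusted p = 0.248). Cxcl12 (-0.10, SE 0.29), which retains plasma cells in their niche, and its receptor Cxcr4 (0.76, SE 0.40) did not pass, though Cxcr4 did without VSG 5 (1.08, adjusted p = 0.0238), where 2 genes of the list passed.

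Below the receptor chains Cd79a and Cd79b, 14 signalling genes were tested, 1 rose and 1 fell. Which cells of the liver carried their RNA was not measured, so the list is not specific to B cells. Dok3, an adaptor that dampens receptor signals and is also expressed in myeloid cells, was at 2.44 ± 0.824 CPM in sham livers against 8.58 ± 4.82 CPM after VSG (1.80, SE 0.47, adjusted p = 0.0473), a call lost in 7 of the 13 alternatives. Cd81, a broadly expressed tetraspanin, fell from 364 ± 71.0 to 176 ± 22.2 CPM (-1.05, SE 0.19, adjusted p = 0.0195), a call lost without sham 2, sham 3 or VSG 6 (adjusted p up to 0.0927). The kinases Syk (0.83, SE 0.40) and Lyn (0.66, SE 0.23), the adaptor Pik3ap1 (0.51, SE 0.30) and the phosphatase Ptpn6 (0.28, SE 0.25) did not pass. No gene of this list passed without sham 3 or VSG 6, and 6 passed without VSG 5. With DESeq2 5 passed (Cd81 and Dok3 and, named after their values were seen, Btk, Blnk and Pik3cd), and with limma-voom 1.

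Of the octamer factors with which Pou2af1 acts, Pou2f1 was at 19.7 ± 3.53 CPM in sham livers against 27.4 ± 0.759 CPM after VSG (0.48, SE 0.14, adjusted p = 0.0633) and Pou2f2 at 7.64 ± 5.38 and 24.7 ± 12.2 CPM (1.69, SE 0.56, adjusted p = 0.0885). Spi1 (0.96, SE 0.46) and Irf8 (0.22, SE 0.31), which share work with them in B cells and myeloid cells, did not pass. Of the genes that handle antibody beside Pigr, Fcgrt, the neonatal Fc receptor that spares IgG, had a log2 fold change of -0.47 (SE 0.20, adjusted p = 0.151), and its partner B2m one of -0.61 (SE 0.18, adjusted p = 0.0657). Fcgr2b (0.04, SE 0.12) and Fcer1g (0.77, SE 0.37) did not pass. Markers of B cell precursors were scarce, with Vpreb1, Igll1, Rag1 and Rag2, named after their values were seen, at 3 counts or fewer in all 6 libraries, and Dntt (-1.32, SE 0.38, adjusted p = 0.0635), Il7r (-0.46, SE 0.27) and Cd93 (-0.26, SE 0.20) did not pass. Over these 3 lists 17 genes were tested and 0 passed in edgeR, 6 had an unadjusted p under 0.05, and 6 passed with DESeq2 and 0 with limma-voom. In edgeR, Pou2f1 and Pou2f2 passed without sham 1 (adjusted p = 0.0328 and 0.0424), where the log2 fold change of Pou2f2 was 2.43. With no low-count filter Pou2f2 (adjusted p = 0.0442) and 1 Fc receptor or transport gene passed. In other edgeR fits Dntt passed without VSG 4 (0.0378) and B2m with total counts (0.0293), and without VSG 5 there were 2 calls among the octamer factors and 2 among the Fc receptors.

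Summed over the 8 members other than Pigr, the level was 6.02 ± 0.832 CPM in sham livers against 30.6 ± 2.80 CPM after VSG. Leaving Jchain out as well gave 3.63 ± 0.899 and 7.05 ± 1.79 CPM, without overlap. That sum still held Pou2af1, the other member past the threshold, whose mean went from 0.640 to 2.47 CPM. Because the members were chosen with this comparison in view, the separation of these sums is no independent evidence. The sum of Cd79a, Cd79b, Ms4a1 and Tnfrsf13c was 4.21, 2.19 and 2.36 CPM in sham 1, 2 and 3 and 5.02, 3.55 and 4.63 CPM in VSG 4, 5 and 6, so sham 1 lay above VSG 5 and the groups overlapped.

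Markers of other blood cells were measured in the same libraries. The summed level of 6 pan-leukocyte genes was 105 to 207 CPM in sham and 142 to 457 CPM in VSG livers, and none of the 6 passed, against 3 without VSG 5, Ptprc among them, and 1 with DESeq2. Ptprc, which encodes the leukocyte antigen CD45, was at 38.7 ± 14.2 and 80.3 ± 36.8 CPM (1.05, SE 0.41). Within each library, Cd79b over Ptprc in FPKM was 0.297 to 0.448 in sham and 0.248 to 0.465 in VSG livers, and Ms4a1 over Ptprc was 0.0717 to 0.0926 and 0.0298 to 0.105, so these groups overlapped. Jchain over Ptprc did not overlap, at 0.308 to 0.676 in sham and 1.59 to 4.09 in VSG livers. Pou2af1 over Ptprc was 0.0580 to 0.183 in sham and 0.188 to 0.254 in VSG livers. In VSG 5 the pan-leukocyte sum was 142 CPM, inside the sham range, and Jchain was at 22.5 CPM. These are values of 1 library, and a link between them was not tested.

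**Figure D4:**
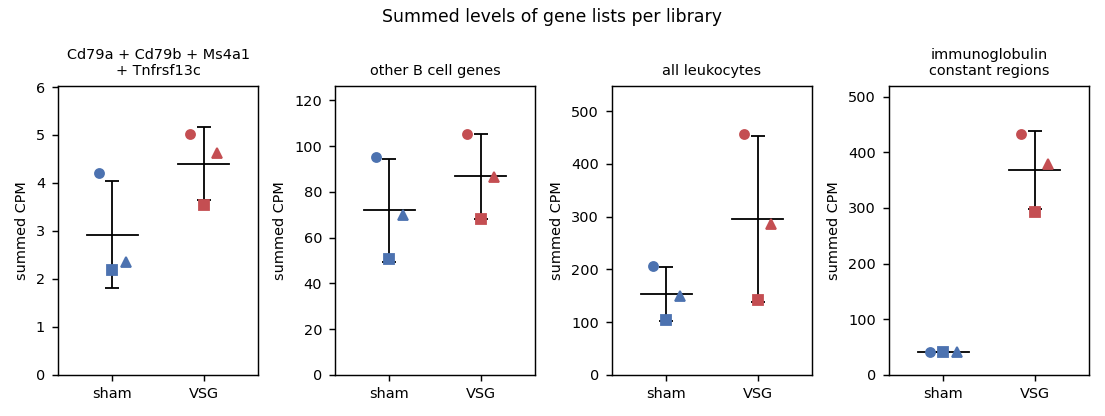
Summed CPM per library (linear axes from 0) of the 4 B cell surface members, the 22 other B cell genes, the 6 pan-leukocyte genes and the 12 immunoglobulin constant regions, with circle, square and triangle for sham 1, 2 and 3 (blue) or VSG 4, 5 and 6 (red) and black lines for the mean ± SD. The immunoglobulin sum is 40.7 to 41.5 in sham and 293 to 433 in VSG livers, and the groups overlap in the other 3 panels.

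All 10 neutrophil and neutrophil precursor genes rose, with a summed level of 2.60 to 14.3 CPM in sham and 148, 842 and 1824 CPM in VSG 5, 6 and 4, although 4 of the 10 passed with limma-voom and 1 when sham 2, sham 3 or VSG 6 was left out. Of 8 Kupffer cell and macrophage genes 4 rose (summed level 345 to 730 CPM in sham and 742 to 2165 CPM in VSG livers), and none of them passed without sham 2, sham 3 or VSG 6. None of 10 tested T cell genes, 4 NK cell genes, 6 erythroid genes, 8 hepatocyte genes or 6 genes of dividing cells passed. With 1 library left out this changed to 1 NK cell gene and 2 genes of dividing cells without VSG 5, and to 1 hepatocyte gene without sham 2. With the pan-leukocyte genes these were 40 tested genes, of which 7 had an unadjusted p under 0.05 in edgeR, 4 passed with DESeq2 and 0 with limma-voom. Of 2 tested plasmacytoid dendritic cell genes Siglech fell (-1.77, SE 0.43, adjusted p = 0.0397), and of 5 bile duct genes Sox9 rose (1.77, SE 0.41, adjusted p = 0.0359), while Krt19, Krt7, Epcam and Spp1 did not pass. The call for Siglech was lost in each fit that left out a library, and that for Sox9 without sham 1, 2 or 3 or VSG 6. The part of these other cells in the differences of the members was not tested.

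Across the 6 libraries, the genes whose log2(CPM + 1) followed a member most closely are given by Pearson's r over 6 points, which share a group difference and carry no p. For Jchain these were Igkc (r = 0.997), Itih4 (0.997), Dusp11 (0.996), Fgb (0.996) and Gm43747 (0.995). Igkc is a product of the same cells, while Itih4 and Fgb encode plasma proteins that hepatocytes secrete. For Cd79a they were Klf7 (0.992), Cacnb1 (0.990), Gstp2 (0.987), Nod2 (0.987) and Mad1l1 (0.980), and for Pigr they were Pofut2 (0.994), Zfp952 (0.989), Gm48714 (0.979), Dnajc22 (0.976) and Ubox5 (0.975). No gene of the B cell or plasma cell lists was among the 5 closest to Cd79a, whose counts were 8 to 22 per library.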

How the data were processed

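The authors deposited whole-number read counts for each gene, made from strand-specific poly(A) libraries of liver RNA (1 library per animal) with FastQC 0.10.1, STAR 2.6.0 on mm10 and featureCounts (2.0.3 per the labels' processing notes) and tested by them with DESeq2. Which annotation release, strand setting and rule for reads shared between genes were used is not given in the sources used here, so counts of overlapping or near-identical genes are uncertain. The table also gave each gene's exon length, used for FPKM. Of 55385 genes, 55144 were matched to GENCODE M21 symbols by identifier.

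Counts were tested in edgeR 4.0.16 (R 4.3.3) with filterByExpr (minimum count 10, minimum total 15, 14454 genes kept), TMM factors (0.897 to 1.15), glmQLFit and glmQLFTest with group as the only term, and Benjamini-Hochberg adjustment over all 14454 genes at 0.05. Fitted fold changes used the default prior count. All adjusted p-values come from this test unless DESeq2 or limma-voom is named. The script was tested on simulated data. Alternatives were DESeq2 1.42.0, limma-voom (limma 3.58.1), RLE factors or total counts for scaling, a filter of 1 count in all or of 10 counts per library, a larger prior count (2), and each of the 6 libraries left out in turn.

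The labels number the mice in 1 running series, so that no number is shared between the groups. The p-values set the group difference against the spread among these 3 and 3 libraries. The estimates of that spread also draw on the other genes tested. The floor of 3 counts covers counting error only, because the libraries carry no molecular identifiers that would separate PCR copies.

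The members and the 18 gene lists were chosen with earlier results of these data known. Named genes were the 9 members, from each list up to 4 called genes in each direction by smallest p and up to 4 uncalled by highest mean CPM, and the 5 genes nearest to Jchain, Cd79a and Pigr. Genes outside this rule are said to be picked after their values were seen. The values of 1 gene of the other B cell list are not reported here, although it is counted in the list.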

Additional observations from a re-analysis of the deposited data

How the results depend on the processing

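Among all genes, 2118 passed in edgeR, 3288 with DESeq2 and 159 to 2732 when 1 library was left out, the fewest without sham 3 (159) and VSG 6 (210), then sham 2 (797), VSG 4 (1076) and sham 1 (1214), and the most without VSG 5. Of the other B cell genes 0 passed, against 4 with DESeq2, 1 with RLE factors, 2 with no low-count filter and 0 to 3 with 1 library left out (1 without sham 2 or VSG 4, 3 without VSG 5). Of the other plasma cell genes 1 passed, against 3 with DESeq2 and 1 to 3 with 1 library left out. The cause of these shifts was not tested.

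The log2 fold changes of the 6 fitted members were positive in each alternative that kept them, Cd79a having no value with at least 10 counts in every library. The genes that changed sign had not passed. With total counts, Cd180 was at -0.15, Fcgr2b at -0.10 and Swap70 at -0.0900. With 1 library left out the ranges were -0.28 to 0.36 for Cd180, -0.0386 to 0.51 for Cd22, -0.35 to 0.15 for Cxcl12, -0.31 to 0.12 for Ell2, -0.0907 to 0.0905 for Fcgr2b, -0.0330 to 0.46 for Irf8, -0.0047 to 0.47 for Ptpn6 and -0.0739 to 0.19 for Swap70. No paired analysis was possible because the labels number the sham mice 1 to 3 and the VSG mice 4 to 6, so the groups share no number. Mzb1, Tnfrsf17 and Tnfrsf13c had no more than 10 counts in any library. For Mzb1, low depth and reads lost to the overlapping gene model cannot be told apart.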
